A study of Mus musculus with 5 samples.

Results

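The genes described here encode the machinery that shapes and moves mitochondria. They are 10 genes, chosen by name for their known roles and not by a measured value, though with earlier results of these data known. They comprise the fusion GTPases Opa1, Mfn1 and Mfn2, and the fission dynamin Dnm1l with its receptors Fis1, Mff and Mief1. The others are the transport adaptors Rhot1 and Rhot2 and the protease Oma1. All 10 were found among the 53700 gene IDs of the deposited count table, and all 10 had enough reads to be tested. RNA was obtained by BAC-TRAP, in which an antibody against EGFP captures tagged ribosomes along with the mRNAs that they carry. All mice were C57BL/6, carried L10a (a ribosomal protein that gains an EGFP tag where Cre recombinase is active), received AAV:THCre in the midbrain and were 4 months old, and RNA was taken 1 month after deletion. The groups were 3 libraries of genotype L10a;Esrrg WT (replicates 2, 3 and 4) and 2 libraries of genotype L10a;Esrrg Flox (replicates 2 and 4), each from midbrains of pooled mice. In Flox mice the same Cre removes an exon of Esrrg, which encodes the transcription factor estrogen-related receptor gamma (ERRγ). By design, tag and deletion are both meant to be limited to cells that take up the virus and use the Th promoter. No count of a library without Cre was analysed here.

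Mitochondria form a network that is continually joined by fusion and divided by fission. Fusion mixes the contents of neighbouring mitochondria, while fission produces units small enough to be carried along axons by motor proteins or to be removed by mitophagy. Midbrain dopaminergic (DAergic) neurons have very long and heavily branched axons and depend on this supply. ERRγ is a nuclear receptor known for driving nuclear genes of mitochondrial respiration. The comparison asks whether the genes of mitochondrial shape and transport differ in the captured RNA once Esrrg is deleted.

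The libraries held between 20635855 and 23105058 counts assigned to genes. DAergic markers were abundant in both groups, with Th at 10889, 9849 and 12813 normalized counts in WT and at 10224 and 10945 in Flox. Normalized counts are read counts divided by the library's DESeq2 size factor. Esrrg itself had 1763, 1643 and 1726 normalized counts in WT and 1504 and 1170 in Flox and its log2 fold change was -0.35 with an SE of 0.133 (adjusted p = 0.0734 in DESeq2). Without Flox replicate 4 the value of Esrrg was -0.19 (DESeq2 adjusted p = 0.873), and without Flox replicate 2 it was -0.55 (DESeq2 adjusted p = 0.00567). Gene-level counts do not measure the deletion, since reads from the exons that stay still count. Flox replicate 4 stood apart most from the other libraries, with a chi-square per degree of freedom of 20.2 to 45.8 in its pairs against 4.25 to 26.9 in the other pairs, so the value of each of the 10 genes without it is given as well.

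Of the 10 genes, only Fis1 was called, that is, passed an adjusted p of 0.05 in the DESeq2 fit across all genes, and it was higher in Flox. The other 9 did not pass, and the fitted values of 8 of them were negative. At the same threshold 8.58% of the 15228 genes tested were called (4.33% higher and 4.25% lower in Flox), so 1 call in 10 is close to the background. None of the 10 also reached a fold of 1.5 (3.26% of all genes did), and 2 of the 10, Fis1 and Opa1, had an unadjusted p under 0.05, as did 20.7% of all genes. The median log2 fold change of the 10 genes was -0.17, against -0.0093 over all genes tested, where 51.4% of values were negative. Negative values also prevailed among 12 DAergic marker genes (median -0.15, 10 of 12 negative) and 3 GABAergic ones (median -0.28, 3 of 3 negative). The same held for 3 glutamatergic markers (median -0.32, 3 negative), and 6 of 9 astrocyte markers were negative (median -0.011). Of 8 oligodendrocyte markers 3 were negative (median 0.032). Microglial and endothelial markers had 0 negative values among those tested (medians 1.69 and 1.58). For 5 genes (Opa1, Mfn2, Dnm1l, Mff and Rhot1) both Flox libraries lay below every WT library, an arrangement found in 22.9% of all genes, and for Fis1 both lay above, as in 19.9% of all genes. Without Flox replicate 4 the median was -0.13 and 7 of 10 values were negative, and without Flox replicate 2 the median was -0.22. In such pooled tissue, fewer cells of a type and less RNA per cell cannot be told apart. With 3 against 2 libraries an exact permutation test on 1 gene could not go below 0.1, so the p-values come from the fit across all genes and cover only the spread between these pools.

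**Figure D1:**
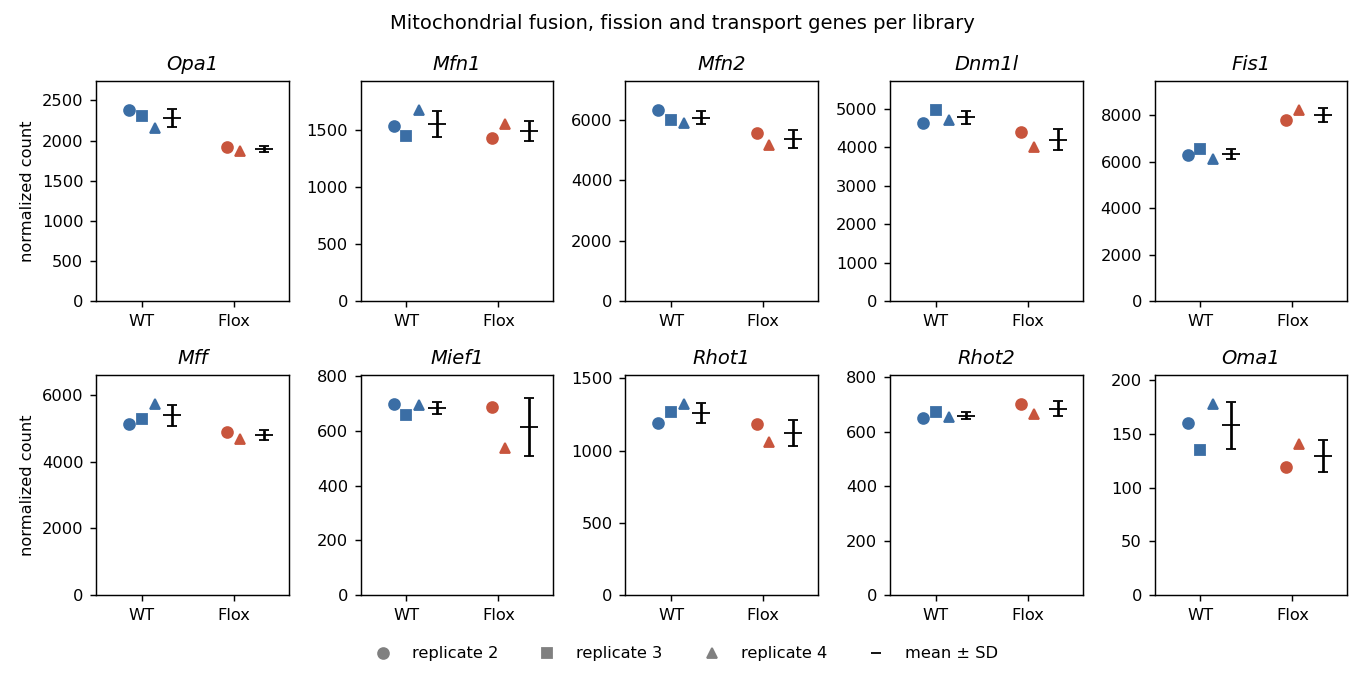
Normalized counts of each of the 10 genes (vertical axes, each starting at 0) in the 3 WT libraries (blue) and the 2 Flox libraries (red), with marker shape for the replicate number and black bars for the mean ± SD. Fis1 is the 1 gene whose Flox points (7799 and 8225) both lie above all WT points (6121 to 6539), while those of Opa1, Mfn2, Dnm1l, Mff and Rhot1 lie below.

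**Figure D2:**
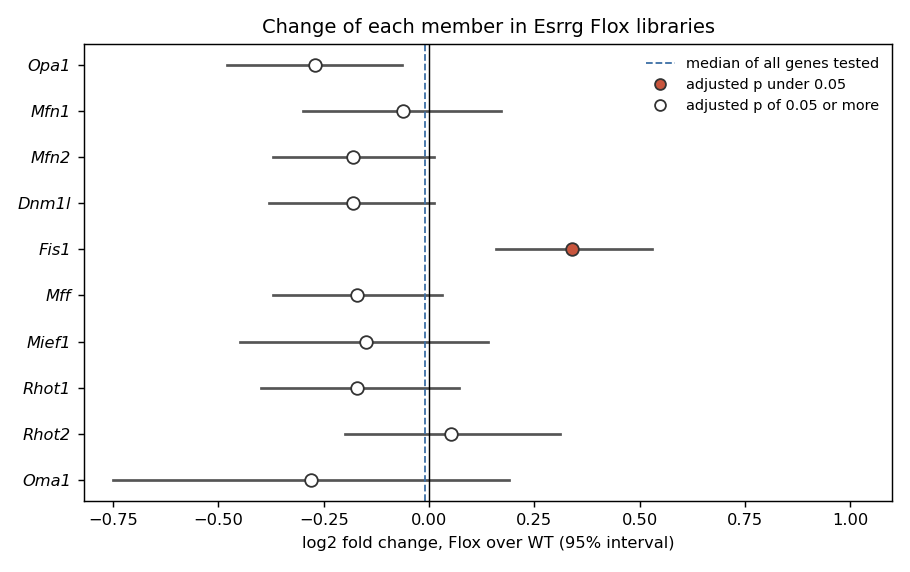
Log2 fold change of Flox over WT (horizontal axis) for each of the 10 genes, with the 95% interval of the DESeq2 estimate as a line, a filled point where the adjusted p was under 0.05, and the median of all genes tested as a dashed line. The filled point is Fis1 at 0.34, and the interval of Opa1 (-0.48 to -0.064) also leaves out 0.

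Fission was represented by 4 genes. Dnm1l encodes DRP1, a cytosolic dynamin that assembles around mitochondria and constricts them, and Fis1, Mff and Mief1 encode outer membrane proteins that can recruit it. Fis1 (ENSMUSG00000019054.14, chromosome 5) is a small tail-anchored protein that also takes part in contacts of mitochondria with lysosomes. It had 6272, 6539 and 6121 normalized counts in WT and 7799 and 8225 in Flox. The groups did not overlap, and the gap between them was wider than the spread within either. The means were 6311 ± 212 (SD, n = 3) and 8012 ± 301 (SD, n = 2), a rise of 27% with a 95% interval of 11.8% to 44.2%. Its log2 fold change was 0.34 (SE 0.0937, DESeq2 adjusted p = 0.00691).

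Fis1 kept its direction under every alternative run, but not its call. Under 13 alternatives the log2 fold change of Fis1 ran from 0.21 to 0.38, and the adjusted p was under 0.05 in 7 of them. The call was kept without WT replicate 4 (DESeq2 adjusted p = 0.0267) and without Flox replicate 2 (DESeq2 adjusted p = 0.0275). It was lost without WT replicate 2 (DESeq2 adjusted p = 0.159), without WT replicate 3 (DESeq2 adjusted p = 0.0544) and without Flox replicate 4 (0.30 on the log2 scale, DESeq2 adjusted p = 0.388). It was also lost with edgeR (adjusted p = 0.0606) and with limma-voom (adjusted p = 0.0617). Of the 16711 genes in these tests, edgeR called 275 and limma-voom 0.

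Fis1 is also a short gene, and fold changes in these libraries moved with exon length. In the shortest of 5 equal groups of genes (0.063 to 2.28 kb of exon), which holds Fis1 with 1.71 kb and Oma1 with 2.14 kb, the median log2 fold change was 0.15, and 288 genes were called higher against 39 lower. In the next group the median was 0.0013, and in the longer groups it was -0.039, -0.062 and -0.054. With this trend removed, a setting added after seeing the data, Fis1 was at 0.21 on the log2 scale (DESeq2 adjusted p = 0.177). Oma1, in the same length group, was negative at -0.28.

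Dnm1l (ENSMUSG00000022789.16, chromosome 16) had 4631, 4973 and 4718 normalized counts in WT and 4394 and 4006 in Flox. Both Flox values lay below the lowest WT value, but the log2 fold change of Dnm1l, -0.18 (SE 0.1, 95% interval -0.38 to 0.012), did not pass (DESeq2 adjusted p = 0.283). Dnm1l was at -0.12 when Flox replicate 4 was left out. Mff (ENSMUSG00000026150.15, chromosome 1), the mitochondrial fission factor that serves as a main receptor for DRP1, had 5123, 5294 and 5742 in WT and 4903 and 4687 in Flox. The groups of Mff did not overlap either, with a log2 fold change of -0.17 (SE 0.101, 95% interval -0.37 to 0.03, DESeq2 adjusted p = 0.351), and without Flox replicate 4 it was -0.14. Mief1 (ENSMUSG00000022412.15, chromosome 15), which encodes MiD51, an adaptor that binds DRP1 together with nucleotides, had 700, 658 and 693 in WT and 689 and 539 in Flox. Here Flox replicate 2 lay within the WT range and only replicate 4 below it. The log2 fold change of Mief1 was -0.15 (SE 0.15, 95% interval -0.45 to 0.14, DESeq2 adjusted p = 0.636), and without Flox replicate 4 it was 0.0075. The fission genes thus differed in sign, with Fis1 above WT and the fitted values of Dnm1l, Mff and Mief1 below 0. The difference between Fis1 and the others was not tested.

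The promoters of the genes were read for the element that ERR proteins bind. RefSeq windows on GRCm38.p6, from 250 bases before to 50 bases after each annotated start, were available for all 10 genes. The core of the ERR element, AAGGTCA, was searched on both strands, together with its extended form TNAAGGTCA, which contains the core. None of the 10 genes held the core, which stands in 5.38% of the 27025 genes with a window, or the extended form, which stands in 1.43%. At shares this low, finding none among 10 genes does not set them apart. Sites outside the windows, or with other letters, were not searched. The NRF1 motif GCGCANGCG, bound by a regulator of nuclear genes for mitochondria, was found in Opa1 and Oma1 (7.03% of all genes). The ETS-type motif CCGGAAGT stood in Fis1, Mfn1 and Mief1 (4.31% of all genes), in Fis1 at both of its annotated starts. These matches are descriptions of letters in a window, and binding was not measured. The windows of Fis1 are printed because it carries the call, and that of Opa1 because it had the next smallest p. Capitals mark the ETS-type motif in Fis1 and, in Opa1, the NRF1 motif, which matches on both strands with overlapping letters.
Fis1, first start (chr5:136953025-136953324, plus strand): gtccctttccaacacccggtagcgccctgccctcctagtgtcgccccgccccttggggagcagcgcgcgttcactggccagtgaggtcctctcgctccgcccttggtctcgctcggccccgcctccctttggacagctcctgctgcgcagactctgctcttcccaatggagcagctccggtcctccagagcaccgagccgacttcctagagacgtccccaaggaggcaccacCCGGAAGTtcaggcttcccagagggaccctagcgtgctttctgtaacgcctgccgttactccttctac
Fis1, second start (chr5:136961827-136962126, plus strand): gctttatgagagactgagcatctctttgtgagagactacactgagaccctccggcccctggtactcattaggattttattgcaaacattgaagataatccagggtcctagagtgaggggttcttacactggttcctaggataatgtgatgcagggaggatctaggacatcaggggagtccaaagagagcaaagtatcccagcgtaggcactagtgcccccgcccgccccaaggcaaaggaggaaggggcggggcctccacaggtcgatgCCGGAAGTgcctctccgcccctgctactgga
Opa1 (chr16:29579084-29579383, plus strand): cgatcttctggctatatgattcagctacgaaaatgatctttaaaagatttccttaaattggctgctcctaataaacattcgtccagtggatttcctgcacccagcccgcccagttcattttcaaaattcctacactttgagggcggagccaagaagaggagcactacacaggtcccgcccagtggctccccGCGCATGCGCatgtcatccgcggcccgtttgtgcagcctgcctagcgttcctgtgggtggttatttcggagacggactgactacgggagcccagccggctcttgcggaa

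Among the fusion genes, Opa1 encodes the dynamin-like GTPase that fuses inner membranes and holds cristae junctions narrow, and its loss of function causes dominant optic atrophy. Opa1 (ENSMUSG00000038084.17, chromosome 16) had 2384, 2307 and 2163 normalized counts in WT and 1917 and 1868 in Flox. Both Flox values were below all WT values, with means of 2285 ± 112 (SD, n = 3) and 1893 ± 35 (SD, n = 2). The log2 fold change of Opa1 was -0.27 (SE 0.106, 95% interval -0.48 to -0.064), and with an unadjusted p of 0.0102 it did not pass across all genes (DESeq2 adjusted p = 0.0886). Opa1 was at -0.26 when Flox replicate 4 was left out. Over the 13 alternatives the value of Opa1 stayed between -0.31 and -0.24, and it passed in 1 of them, with the trend of fold changes on GC content removed (DESeq2 adjusted p = 0.0498; the range over all alternatives was 0.0498 to 0.705).

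Mfn1 and Mfn2 encode the mitofusins, paralogous GTPases that tether and fuse outer membranes, and mutations of the human MFN2 gene cause an axonal form of Charcot-Marie-Tooth neuropathy. Mfn2 (ENSMUSG00000029020.14, chromosome 4) had 6338, 6012 and 5893 normalized counts in WT and 5576 and 5170 in Flox. Its groups did not overlap, and the log2 fold change of Mfn2 was -0.18 (SE 0.0973, 95% interval -0.37 to 0.012, DESeq2 adjusted p = 0.285) and, without Flox replicate 4, -0.13. Mfn1 (ENSMUSG00000027668.14, chromosome 3) had 1534, 1450 and 1680 in WT and 1428 and 1553 in Flox. In Mfn1 the groups overlapped, and the value was -0.062 (SE 0.119, 95% interval -0.30 to 0.17, DESeq2 adjusted p = 0.848). The fit without Flox replicate 4 gave -0.13 for Mfn1, and that without replicate 2 gave -0.0022.

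Rhot1 and Rhot2 encode the Miro proteins, calcium-binding GTPases of the outer membrane that link mitochondria through TRAK adaptors to kinesin and dynein. Rhot1 (ENSMUSG00000017686.18, chromosome 11) had 1191, 1265 and 1325 normalized counts in WT and 1186 and 1059 in Flox. Flox replicate 2 was only just below the lowest WT value, and the log2 fold change of Rhot1 was -0.17 (SE 0.121, 95% interval -0.40 to 0.071, DESeq2 adjusted p = 0.48). Rhot1 was at -0.091 when Flox replicate 4 was left out. Rhot2 (ENSMUSG00000025733.18, chromosome 17) had 649, 673 and 655 in WT and 703 and 664 in Flox. Its groups overlapped, with a log2 fold change of 0.053 (SE 0.129, 95% interval -0.20 to 0.31, DESeq2 adjusted p = 0.886), and without Flox replicate 4 it was 0.09. The counts of Rhot2 are uncertain, because 31.2% of its exon bases in the GENCODE M21 annotation are shared with Wdr90 and Gm20683, and reads that fall in more than 1 gene are left out as ambiguous. This share was 4.67% for Dnm1l, 2.63% for Mief1 and 2% for Mff, and 0 for the other 6 genes.

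Oma1 encodes an inner membrane metalloprotease that cleaves OPA1 under stress and so stops inner membrane fusion. It was the least abundant of the 10 genes. Oma1 (ENSMUSG00000035069.4, chromosome 4) had 160, 135 and 178 normalized counts in WT and 119 and 140 in Flox. The groups overlapped, and the log2 fold change of Oma1 was -0.28 (SE 0.24, 95% interval -0.75 to 0.19, DESeq2 adjusted p = 0.575). Its point estimate was close to that of Opa1, with an SE of 0.24 against 0.106. Without Flox replicate 4 the value of Oma1 was -0.41, and without Flox replicate 2 it was -0.17.

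Levels of different genes were compared as CPM per kb of exon, where CPM is a gene's count scaled to a common total of assigned counts (counts-per-million). Fis1 was the most abundant gene, with a WT mean of 169 ± 8.28 CPM per kb (SD, n = 3) and a Flox mean of 209 ± 2.94 (SD, n = 2). In WT it was followed by Mfn2 with a mean of 53.7, Dnm1l with 42.1 and Mff with 25.3. Opa1 with 13.3 and Mfn1 with 11.6 came next, and these neighbours were the only ones whose WT ranges met (12.4 to 13.9 for Opa1 and 11 to 12.4 for Mfn1). Rhot1 with 7.79, Rhot2 with 6.8, Mief1 with 3.87 and Oma1 with 3.36 were lower still. The most abundant DRP1 receptor was thus Fis1 and the least abundant Mief1. Exon length here is the length of all annotated exons of a gene, so genes with long, rarely used exons are placed too low. It also includes the 31.2% of Rhot2 exon bases shared with other genes, whose reads are left out. Rhot2 is therefore likely placed too low, and its order against Rhot1 is not settled.

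**Figure D3:**
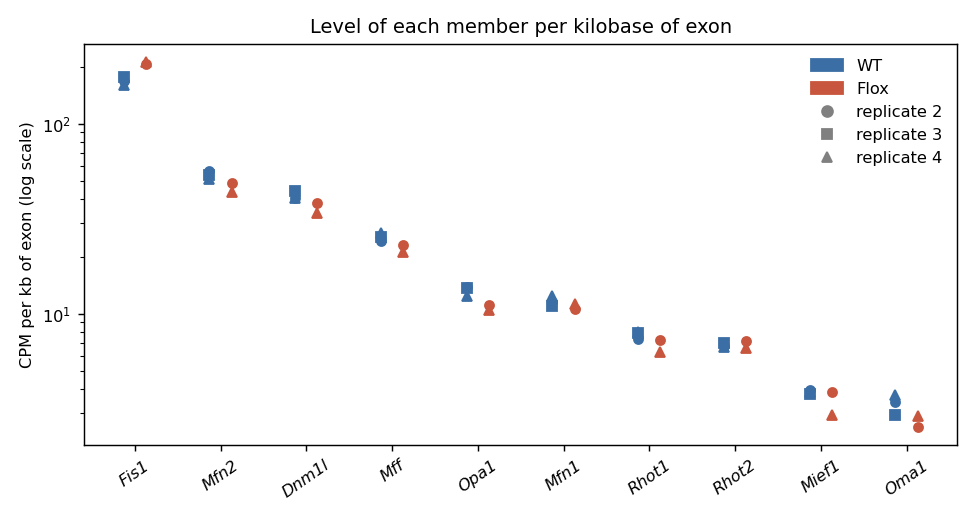
Level of each gene in CPM per kb of exon (vertical axis, log scale), in order of the WT mean, for WT (blue) and Flox (red) libraries, with marker shape for the replicate number. Levels span from Fis1 (WT mean 169) to Oma1 (WT mean 3.36), and the span over the genes is far wider than the difference between groups within any gene.

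Ratios within a library do not depend on its size factor, and are given as descriptions with no test. Mfn2 made up 82.9%, 83% and 80.5% of mitofusin counts per kb in WT and 82.1% and 79.7% in Flox, so the paralogues kept overlapping proportions. Rhot2 made up 47.6%, 47% and 45.2% of Miro counts per kb in WT and 49.7% and 51.1% in Flox. Both Flox values of this share were above all WT values, with the uncertainty of Rhot2 counts given above. Because of the shared exon bases of Rhot2, the share is likely too low in every library. The ratio of Fis1 to Dnm1l per kb was 4.11, 3.99 and 3.94 in WT and 5.39 and 6.23 in Flox. That of Fis1 to Mff was 6.97, 7.03 and 6.07 in WT and 9.06 and 9.99 in Flox, again without overlap. Both ratios reuse the Fis1 counts given above, and Fis1 is in a shorter exon-length group than Dnm1l and Mff. The part of the exon-length trend in these ratios was not tested. Opa1 over Dnm1l was 0.34, 0.307 and 0.303 in WT and 0.288 and 0.308 in Flox, with overlap. Together the 10 genes took between 0.123% and 0.136% of assigned counts.

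**Figure D4:**
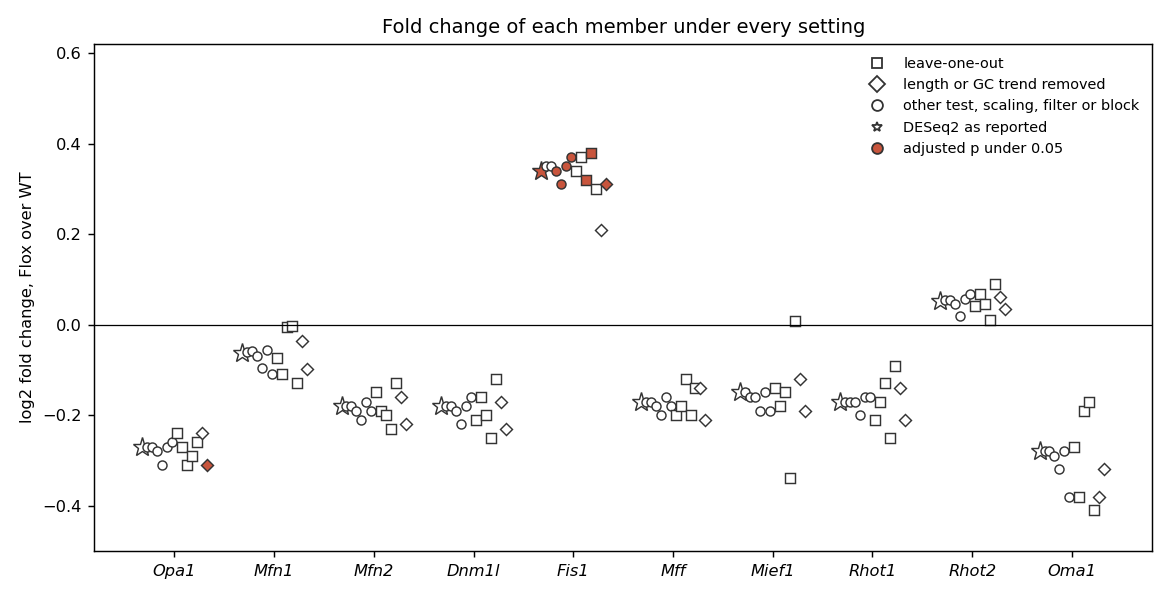
Log2 fold change of Flox over WT (vertical axis) for each of the 10 genes under the reported DESeq2 fit (star) and 13 alternatives (squares for leaving out a library, diamonds for a removed length or GC trend, circles for another test, scaling, filter or block), filled where the adjusted p was under 0.05. Every Fis1 value is above 0 (0.21 to 0.38) and every Opa1 value below (-0.31 to -0.24), while Mief1 reaches 0.0075 in 1 alternative.

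The surrounding pathway was covered by 54 related genes in 6 lists, of which 52 had an adjusted p. The other two, named outside the rule for named genes, were Mtfr2, with 3.35 normalized counts in WT and 7.8 in Flox, and Mgarp, with 7.8 and 15.7. Of the 52 genes, 6 were called, 5 lower and 1 higher in Flox, beside 8.58% of all genes (4.25% lower and 4.33% higher), and 15 had an unadjusted p under 0.05, beside 20.7% of all genes. Their median log2 fold change was -0.12, with 39 negative values. For 26 of the 52 both Flox libraries lay below all WT libraries and for 4 above, beside 22.9% and 19.9% of all genes. Without Flox replicate 4, which leaves 1 Flox library, the median of the related genes was -0.071 with 38 negative values. Without WT replicate 2 DESeq2 called 0 of the related genes (8 at an unadjusted p under 0.05), with a median of -0.12. In that fit it called only 355 of all 14903 genes tested, so 0 calls do not set the related genes apart.

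The Miro proteins act with the genes of the transport and anchoring list. Of the 12 transport and anchoring genes tested, 2 fell (Trak1 and Snph), 1 rose (Kif5b) and 9 did not pass, with a list median of -0.079 and 8.58% of all genes called in either direction. Trak1 encodes the adaptor that joins Miro to kinesin and dynein, and had 3585, 3359 and 3181 normalized counts in WT and 2631 and 2031 in Flox. The log2 fold change of Trak1 was -0.53 (SE 0.131, DESeq2 adjusted p = 0.00239), and it lost the call without WT replicate 2 (-0.49, DESeq2 adjusted p = 0.0722) and without Flox replicate 4 (-0.36, DESeq2 adjusted p = 0.29). Snph encodes syntaphilin, which docks axonal mitochondria to microtubules, and had 4871, 4590 and 4527 in WT and 3800 and 3065 in Flox. Its log2 fold change was -0.44 (SE 0.119, DESeq2 adjusted p = 0.00617), with the call of Snph lost without WT replicate 2 (-0.41, DESeq2 adjusted p = 0.123) and without Flox replicate 4 (-0.30, DESeq2 adjusted p = 0.442). Kif5b encodes a heavy chain of the kinesin that carries mitochondria outward, and had 4702, 4775 and 4160 in WT and 5335 and 6214 in Flox. Kif5b was at 0.35 (SE 0.115, DESeq2 adjusted p = 0.0375), and of the 5 fits without a library only that without Flox replicate 2 kept the call (log2 fold change 0.45, DESeq2 adjusted p = 0.0158). Without Flox replicate 4 it was at 0.23 (DESeq2 adjusted p = 0.746), and without WT replicates 2, 3 or 4 the adjusted p of Kif5b was 0.177, 0.0989 and 0.0889. The groups did not overlap in any of the 3 genes. No related gene was called with edgeR or limma-voom, which called 275 and 0 of 16711 genes.

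In the mitophagy and outer membrane quality control list 1 of 10 genes was called, close to the 8.58% of all genes. This was Bcl2l13, a mitophagy receptor of the outer membrane, with 477, 472 and 525 normalized counts in WT and 353 and 284 in Flox. Its log2 fold change was -0.63 (SE 0.165, DESeq2 adjusted p = 0.00516). It was the 1 gene of the 52 called with a fold of at least 1.5, beside 3.26% of all genes. The call of Bcl2l13 was lost without WT replicate 2 (-0.65, DESeq2 adjusted p = 0.0756) and with the replicate number as a block (DESeq2 adjusted p = 0.121). It was also lost with edgeR (adjusted p = 0.0502) and limma-voom (adjusted p = 0.0551). Without Flox replicate 4, which leaves 1 Flox library, Bcl2l13 was at -0.48. The other 9 genes of this list did not pass, and its median was -0.064.

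Among 3 outer membrane fusion factors, 1 was called, beside 8.58% of all genes. This was Miga2, a mitoguardin that acts on mitofusin-dependent fusion. It fell from 2431, 2342 and 2343 normalized counts in WT to 1980 and 1805 in Flox. The log2 fold change of Miga2 was -0.33 (SE 0.105, DESeq2 adjusted p = 0.0307). The call was lost without WT replicate 2 (DESeq2 adjusted p = 0.298) and without WT replicate 3 (DESeq2 adjusted p = 0.175). It was also lost with the replicate number as a block (DESeq2 adjusted p = 0.187) and with the exon-length trend removed (DESeq2 adjusted p = 0.0566). The same held with edgeR (adjusted p = 0.0806) and limma-voom (adjusted p = 0.0827). Without Flox replicate 4, which leaves 1 Flox library, Miga2 was at -0.26. Of the 11 other fission factors and regulators tested, 1 was called, close to the 8.58% of all genes, and the list median was -0.13. It was Spire1, an actin nucleator with a mitochondrial form that takes part in fission, with 1715, 1728 and 1894 in WT and 1404 and 1366 in Flox. Spire1 had a log2 fold change of -0.36 (SE 0.111, DESeq2 adjusted p = 0.0212), and the call was lost in each of the 5 fits without a library, with adjusted p-values of 0.158, 0.119 and 0.0731 without WT replicates 2, 3 and 4 and of 0.0865 and 0.444 without Flox replicates 2 and 4. In these fits the log2 fold change of Spire1 stayed between -0.39 and -0.32.

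No gene was called in the remaining lists. Among 8 inner membrane proteases and scaffolds, 3 had an unadjusted p under 0.05 in DESeq2, beside 20.7% of all genes, and the median was -0.19. The gene with the highest mean normalized count was Phb, a prohibitin that scaffolds the inner membrane, with 3774, 3635 and 3865 normalized counts in WT and 3456 and 3465 in Flox. Both Flox values of Phb lay below all WT values, and the log2 fold change was -0.12 (SE 0.0956, DESeq2 adjusted p = 0.542). Among 8 genes of the MICOS complex, which forms cristae junctions, 1 had an unadjusted p under 0.05 in DESeq2 (20.7% of all genes did). The median of this list was -0.036. Micos10, the gene of this list with the highest mean normalized count (not corrected for length), had 3849, 4182 and 4292 in WT and 4115 and 4037 in Flox, with overlapping groups (log2 fold change -0.011, SE 0.101, DESeq2 adjusted p = 0.975). The ERR core was found in 4 of the 43 related genes with a promoter window (9.3%, beside 5.38% of all genes). These were Pld6, Marchf5, Chchd6 and Micos10, named after their values were seen. None of these 4 was called by DESeq2 or had an unadjusted p under 0.05 (adjusted p from 0.548 to 0.975), beside 8.58% and 20.7% of all genes. So few genes cannot show whether the core goes with a change.

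**Figure D5:**
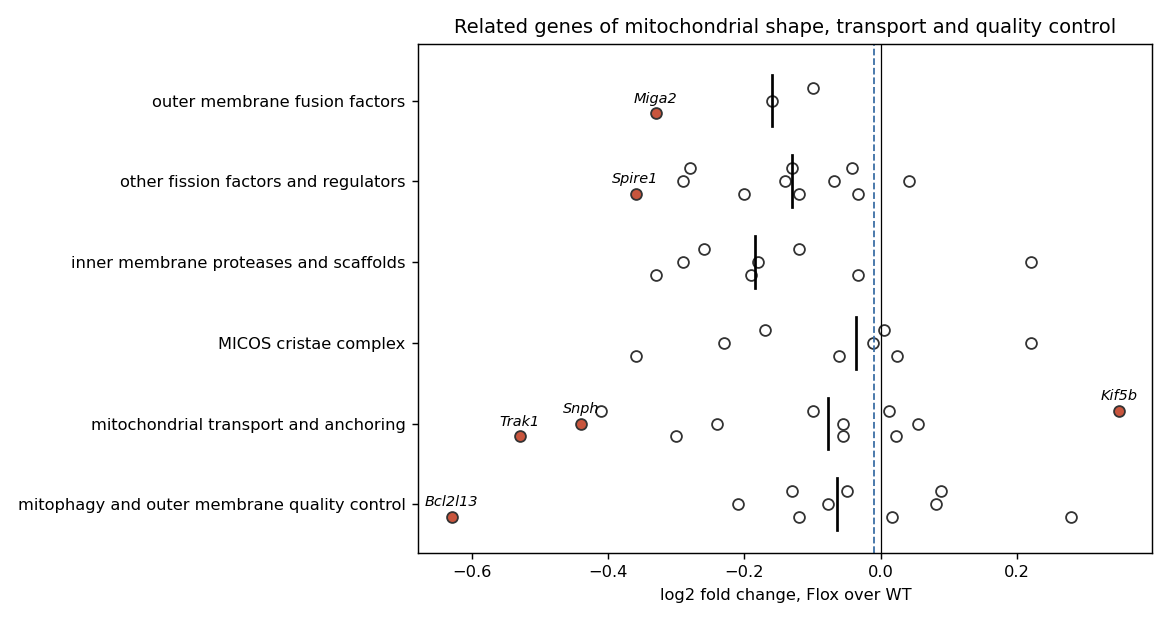
Log2 fold change of Flox over WT (horizontal axis) for the 52 related genes tested, by list, with filled and named points for an adjusted p under 0.05, a black bar for each list's median and a dashed line for the median of all genes tested (-0.0093). The 5 called genes to the left are Bcl2l13, Trak1, Snph, Spire1 and Miga2, and Kif5b (0.35) is the 1 called gene to the right.

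Some markers of other cell types differed between the groups too. Of all genes tested, 4.33% were called higher and 4.25% lower in Flox, and 20.7% had an unadjusted p under 0.05 in DESeq2. The summed level of 12 microglial markers was 69.6 to 136 CPM in WT and 237 to 491 in Flox, highest in Flox replicate 4, and 10 of the 12 were called higher. For 8 endothelial markers the sum was 5.41 to 13.1 CPM in WT and 13 to 34 in Flox, so the groups just overlapped. The highest sum was again in Flox replicate 4, and 3 of 7 endothelial markers tested were called higher. Sums of 3 GABAergic markers were 905 to 942 CPM in WT and 709 to 819 in Flox, with 1 called lower. Astrocyte (3479 to 4919 and 3589 to 4514), oligodendrocyte (5120 to 7357 and 5711 to 6524) and glutamatergic sums (221 to 339 and 216 to 281) overlapped between WT and Flox, with 0 called by DESeq2 and 1, 0 and 0 at an unadjusted p under 0.05. Sums of 12 DAergic markers were 2500 to 2857 CPM in WT and 2478 to 2518 in Flox, and 1 of the 12 was called, lower in Flox. No marker was at 0 in any library. The part of these shifts in the values of Fis1 and the other genes was not tested.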

How the data were processed

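BAC-TRAP RNA from pooled midbrains was sequenced as poly(A)-selected libraries that do not mark strand. The authors deposited raw read counts per gene, with 5 summary lines for unassigned reads, which were left out here (3.18 to 4.45% without a gene, 5.62 to 5.78% ambiguous, 3.6 to 4.23% aligned to several places). The submitters' processing notes name Trim Galore 0.6.6, STAR 2.7.9a and HTSeq 0.11.3. The sources name different genome builds, so gene coordinates are not given for the counts. IDs were named by matching, without version, to GENCODE M21 (52093 of 53700, 97%), which also gave exon lengths and overlaps.

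The counts were fitted in DESeq2 (version 1.42.0, R 4.3.3; default size factors, two-sided Wald test, independent filtering at 0.05, Benjamini-Hochberg adjustment over all 15228 genes tested) with 3 WT and 2 Flox libraries. The tool, the libraries and the thresholds are those of the study's methods, while the remaining settings were chosen here. Intervals are 95% Wald intervals. Alternatives were edgeR version 4.0.16 (quasi-likelihood), limma version 3.58.1 (voom), TMM and total-count scaling, a low-count filter (10 or more counts in 2 or more libraries), the replicate number as a block, and leaving out each library. Removing the trend on exon length or GC content was added after seeing the data. The steps were tested on simulated data with 200 changed genes. A count of 0 allows up to 3 counts, or 0.13 to 0.145 CPM, which covers counting error only.

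The genes and lists were chosen with earlier results of these data known. Named genes are the 10 genes, every related gene called, the gene with the highest mean normalized count in each list without a call, Esrrg and Th. Outside this rule, Mtfr2 and Mgarp are named as untested, and Pld6, Marchf5 and Chchd6 for a promoter motif.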

Additional observations from a re-analysis of the deposited data

How the results depend on the processing

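The direction of the fitted value held for 9 of the 10 genes in all 13 alternatives, and Mief1 ranged from -0.34 to 0.0075 on the log2 scale when single libraries were left out. The number of the 10 genes called, 1 in DESeq2, was 0 with edgeR and 0 with limma-voom (2 at an unadjusted p under 0.05 with each), 0 with the exon-length trend removed, 2 with the GC trend removed, and 0 to 1 when single libraries were left out. Of the related genes, 6 were called in DESeq2, 0 with edgeR, 0 with limma-voom (16 of 53 at an unadjusted p under 0.05 with each) and 0 to 9 when single libraries were left out. Over all genes the 1306 calls became 275 with edgeR, 0 with limma-voom (3830 at an unadjusted p under 0.05) and 78 (without Flox replicate 4) to 1590 (without Flox replicate 2). The 497 calls at a fold of 1.5 became 203 with edgeR, 0 with limma-voom and 52 to 893 when single libraries were left out. With the GC trend removed, 516 genes were called higher and 811 lower, 38.9% higher against 50.5%. With the replicate number as a block there were 478 calls, 209 at a fold of 1.5, 1 of the 10 genes and 2 related genes. The numbers are not taken as pairs, since the labels do not say that they mark a shared batch and only 2 numbers are shared (same-number correlations of deviations 0.0932 and 0.0874). The cause of these changes was not tested. With 3 and 2 libraries the precision is low: even for Fis1, the most abundant per kb, the 95% interval ran from 0.16 to 0.53 on the log2 scale.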
